A study of Mus musculus with 46 samples.

Results

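The 10 genes described here are mesenchymal transcription factors and markers, followed while mouse embryonic fibroblasts (MEF) were reprogrammed to induced pluripotent stem cells (iPSC). They comprise the Snail factors Snai1 and Snai2, the Twist factors Twist1 and Twist2, the Zeb factors Zeb1 and Zeb2, the homeobox factor Prrx1, the cadherins Cdh2 and Cdh11, and Vim, which encodes the intermediate filament protein vimentin. Their 10 rows were taken by symbol from the 37108 genes of the gene table, and their transcripts were summed by symbol in the iPSC transcript table, which then held 35976 genes. The question asked of them was when each is lost with each factor combination.

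All time-course cultures started from MEF of mid-gestation embryos, which carried the OG2 reporter (GFP driven by Oct4), and all were infected with pMXs retroviruses carrying Oct4 (gene symbol Pou5f1) and a form of Nanog. In the NanogWT combination this form was native Nanog, and in the NanogBiD combination (NanogN70 in the sample labels) it was Nanog fused to the BRG1-binding N-terminus of SS18, which belongs to the BAF remodelling complex. Transcripts of the vectors and of the endogenous genes are counted together. RNA was sampled at D0, taken after the rounds of infection, and on 7 further days (D1, D3, D5 and D7, then D8, D10 and D12), with 2 libraries per combination and day except for a single NanogBiD library at D8. Uninfected MEF (2 libraries), mouse embryonic stem cells (mES, 1 library of an OG2 line) and 12 iPSC libraries, 6 per combination, completed the set. By their labels, 2 of the NanogWT iPSC libraries (1# and 1#-2 of line iPSC1) share a sample number, so that combination has 5 distinct numbers. The libraries are of whole cultures, so a lower level cannot be told apart between fewer cells that express a gene and less RNA of it per cell. The medium was changed from a reprogramming medium to N2B27 with 2iL after about D7, the iPSC and mES were kept in the latter without feeders, and line and passage of the iPSC cannot be told apart. The labels do not say that same-group libraries came from separate cultures, so p-values measure the spread between these libraries, which may be technical.

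Fibroblasts are mesenchymal cells, and iPSC are epithelial in character, so reprogramming of fibroblasts passes through a mesenchymal-to-epithelial transition. Snail and Zeb factors are zinc finger repressors, and Twist factors are basic helix-loop-helix proteins; all bind E-box sequences and are known for keeping epithelial genes such as Cdh1 (E-cadherin) silent. Prrx1 marks embryonic limb and facial mesenchyme and fibroblasts, Cdh2 (N-cadherin) and Cdh11 (osteoblast cadherin) join mesenchymal cells to each other, and vimentin forms their intermediate filaments.

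Values are FPKM (fragments per kilobase of the gene model scaled to the mapped fragments of the library), which are scaled by length and so can be compared between genes. Differences are on the log2(FPKM + 1) scale, from limma fitted to all 16842 genes that reached 1 FPKM in at least 2 time-course libraries. To be called, a difference had to reach at least 2-fold (a size of 1) with an adjusted p under 0.05, by limma with the Benjamini-Hochberg method throughout. All 10 genes passed the filter. Relative depth, read from the spacing of low values, was 0.829 to 1.12 in 25 time-course libraries and 1.89 to 3.25 in the 6 NanogWT libraries of D8 to D12, so depth and combination cannot be told apart from D8 on. The SS18 piece of the fusion showed in Ss18, which stood at 57.4 to 66.1 FPKM in the NanogBiD libraries of D0 and at 26.0 to 30.5 in those of NanogWT. The summed level of 6 fibroblast markers (Col1a1, Col1a2, Col3a1, Thy1, Pdgfra and Dcn) was 5475 to 6458 FPKM in MEF and 4.61 in mES, where Col3a1 was listed at 0. It was 237 to 379 FPKM with NanogBiD and 526 to 564 with NanogWT at D7, and 244 to 447 against 2314 to 2767 at D10 and D12. Marker sums of endothelial cells, macrophages, neural crest and glia, and skeletal muscle stayed at or under 28.3, 16.7, 3.15 and 5.47 FPKM in all time-course libraries.

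With NanogBiD, 6 of the 10 genes ended below 50% of their D0 mean in all libraries, and with NanogWT 2 did. Prrx1 passed that limit for good at D1 and Twist2 at D3 with both combinations. Vim passed it at D7, Snai2 at D8 (with 1 library at that day), Cdh11 at D10 and Twist1 at D12, each of them with NanogBiD alone. Snai1 was under it in all libraries at D3 with NanogBiD and at D3, D5 and D7 with NanogWT, but not at D10 or D12. Zeb1, Zeb2 and Cdh2 were under it in all libraries on no day with either combination. Counted against MEF the order differs, because the D0 means were not those of MEF. Snai1 and Twist1 were called lower than MEF at D0. With NanogBiD, the D0 means of Twist2 and Cdh11 were 31.3 and 55.2 FPKM, against 57.6 and 112 in MEF. Those of Vim and Prrx1 were the other way, at 4192 and 66.7 against 2259 and 51.9. The limit was then set at 50% of the MEF mean. Snai1 was under it in all libraries at D0 and on every later day with both combinations. Twist2 passed it for good at D1 with both, and Prrx1 at D1 with NanogBiD and D3 with NanogWT. With NanogBiD alone, Snai2 then passed at D1, Twist1 and Cdh11 at D7 and Vim at D8. These days are descriptions of 2 libraries each, and whether a day differs between combinations was tested only through the differences given below.

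**Figure D1:**
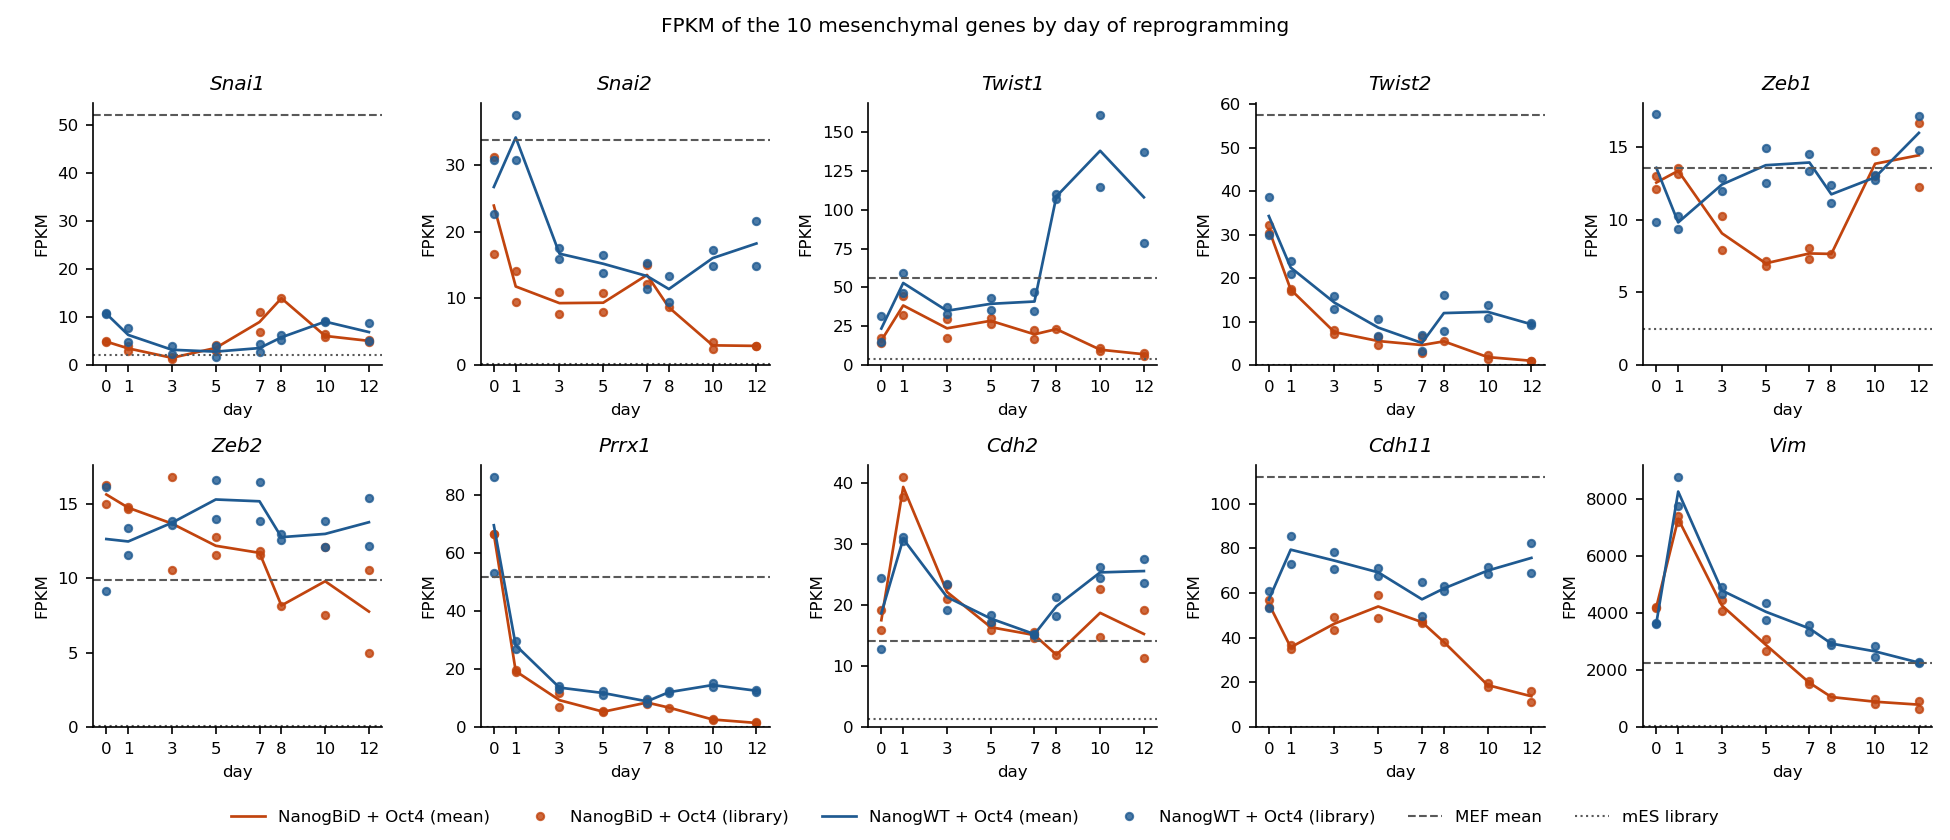
FPKM of the 10 genes (y axes from 0, own scale per gene) against the day of reprogramming for NanogBiD with Oct4 (orange) and NanogWT with Oct4 (blue); points are libraries and lines join the means, and the dashed and dotted lines give the MEF mean and the mES library. Counted from D0, Prrx1 and Twist2 pass below 50% for good before the other genes in both, and Twist1 climbs to 138 FPKM at D10 with NanogWT and ends at 6.92 FPKM with NanogBiD.

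Prrx1 (chromosome 1, 163245119 to 163313710, minus strand; positions here are GENCODE M21 on mm10) was the first of the 10 to be called lower than D0, at D1. It stood at 66.7 and 66.6 FPKM in the NanogBiD libraries of D0 and at 53.1 and 86.3 in those of NanogWT, around the 51.5 and 52.2 of MEF. At D1 the libraries were at 19.6 and 18.9 FPKM with NanogBiD and at 26.8 and 29.6 with NanogWT, so that no library of D1 reached any of D0. The log2 changes from D0 were -1.74 (SE 0.20, adjusted p = 2.37e-06) and -1.24 (SE 0.20, adjusted p = 0.000108); without NanogWT D0 replicate 2 the latter was -0.89 and no longer called. With NanogBiD, Prrx1 was at 5.21 and 5.39 FPKM at D5, higher in both libraries of D7 (7.91 and 9.03), at 6.73 in the D8 library and at 1.24 and 1.62 at D12, which is 2.15% of its D0 mean. With NanogWT it was lowest at D7 (8.25 and 9.54 FPKM) and stood at 12.1 and 12.9 FPKM at D12, or 18.0%. The mES library lists it at 0.

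Twist2 (chromosome 1, 91801461 to 91848028, plus strand), which acts in dermal and bone-forming mesenchyme, followed. Its D0 libraries were at 30.3 and 32.2 FPKM with NanogBiD and at 38.6 and 30.0 with NanogWT, below the 55.3 and 59.9 of MEF. At D3 it was at 7.94 and 7.19 FPKM with NanogBiD and at 12.8 and 15.9 with NanogWT, and both changes were called (log2 -1.91, SE 0.33, adjusted p = 0.000122, and -1.20, SE 0.33, adjusted p = 0.00749). The NanogWT call is lost without D0 replicate 1 (-1.02) or D3 replicate 1 (-1.05). Both combinations arrived near the same level at D7, at 2.73 and 6.45 FPKM with NanogBiD and 3.26 and 6.87 with NanogWT. After D7 they parted. NanogBiD went to 0.913 and 1.03 FPKM at D12, while NanogWT stood at 7.79 and 16.1 FPKM at D8 and at 9.62 and 9.13 at D12, 27.3% of its D0 mean.

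Twist1 (chromosome 12, 33957671 to 33959829, plus strand), needed for cranial and limb mesenchyme, took the opposite course with NanogWT. At D0 it stood at 13.9 and 17.6 FPKM with NanogBiD and at 31.9 and 15.1 with NanogWT, all below the 67.6 and 44.4 of MEF. At D1 it was called higher with both, at 32.5 and 44.2 and at 59.1 and 46.5 FPKM. That early rise depended on single libraries, because the NanogBiD call (log2 1.22) is lost without D0 replicate 2 (1.07) or D1 replicate 1 (1.01), and the NanogWT call (1.22) without D0 replicate 2 (0.70) or D1 replicate 1 (1.05). With NanogBiD, Twist1 was at 22.5 and 17.0 FPKM at D7, 23.1 in the D8 library and 6.03 and 7.81 at D12. The log2 change from D0 to D12 was -1.08 (SE 0.31, adjusted p = 0.00568), and it was -0.92 and not called without D0 replicate 1 or D12 replicate 1. With NanogWT, Twist1 was at 47.1 and 34.6 FPKM at D7 but at 110 and 107 at D8. Its D10 libraries held 115 and 161 FPKM and its D12 libraries 137 and 78.8. Every NanogWT library of D8 to D12 was therefore above both MEF libraries, and the changes from D0 were 2.25, 2.57 and 2.19 (SE 0.31, adjusted p = 9.98e-06, 2.35e-06 and 1.51e-05). These are the deeper libraries, in which the fibroblast markers were also higher than at D7; the part of either in the rise was not tested.

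The promoters of these 3 genes are shown because they cover the earliest losses after D0 and the widest parting. The sequences are RefSeq's for GRCm38.p6, read 5′ to 3′ on the gene's strand, and lie upstream of the start. Promoters of 6 of the 10 genes were searched (Snai1, Twist1, Twist2, Zeb2, Prrx1 and Vim). No promoter was listed for Snai2 and Cdh11, and Zeb1 and Cdh2 were left out of the search. The Prrx1 stretch ends just before the most upstream start in GENCODE, so it holds no transcribed base. Capitals mark matches to 6 motifs searched on both strands: the E-box CANNTG, its CAGGTG form (a subset of the former), the AP-1 motif TGANTCA, the TEAD motif GGAATG, the CCAAT box CCAAT and the TATA box TATAAA.
Prrx1, chr1:163313711-163313900, minus strand: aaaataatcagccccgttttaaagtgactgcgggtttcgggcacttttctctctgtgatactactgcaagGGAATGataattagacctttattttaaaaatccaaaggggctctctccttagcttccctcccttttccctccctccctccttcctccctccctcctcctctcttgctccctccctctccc
Twist2, chr1:91801211-91801460, plus strand: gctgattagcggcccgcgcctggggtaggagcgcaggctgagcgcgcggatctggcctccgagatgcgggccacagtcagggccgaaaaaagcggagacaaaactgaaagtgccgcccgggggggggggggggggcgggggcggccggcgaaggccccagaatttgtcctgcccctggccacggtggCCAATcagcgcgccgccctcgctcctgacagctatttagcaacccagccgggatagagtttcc
Twist1, chr12:33957421-33957670, plus strand: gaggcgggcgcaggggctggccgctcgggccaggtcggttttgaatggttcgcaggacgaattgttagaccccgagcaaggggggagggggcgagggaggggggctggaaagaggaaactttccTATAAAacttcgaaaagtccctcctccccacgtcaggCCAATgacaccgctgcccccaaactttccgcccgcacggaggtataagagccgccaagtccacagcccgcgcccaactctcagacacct

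Over the 250 bases upstream of the start, Prrx1 held 1 TEAD motif, Twist2 held 1 CCAAT box, and Twist1 held 1 CCAAT box and 1 TATA box. None of these 3 windows held an E-box. Among all 32851 promoter windows of that length, 66.2% held an E-box, 17.2% its CAGGTG form, 6.75% the AP-1 motif, 12.6% the TEAD motif, 33.8% a CCAAT box and 12.4% the TATA box. Snai1 held 1 E-box, of the CAGGTG form, and 1 CCAAT box, and Vim held 2 CCAAT boxes and 1 TATA box. Of the 4 Zeb2 windows, 1 held 2 AP-1 motifs and 1 TEAD motif, 1 held 2 CCAAT boxes, and the other 2 held none of the 6 motifs. By the GENCODE positions, the Vim window lies inside the gene, as do the Zeb2 windows other than that with 2 CCAAT boxes. The Prrx1 window reaches into its gene. A match is a run of letters and not a bound site. G and C made up 47.6% of the Prrx1 window, 68.8% of that of Twist2 and 62.4% of that of Twist1.

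Snai2 (chromosome 16, 14705852 to 14709385, plus strand), the Slug repressor of neural crest and fibroblasts, divided the combinations first at D1. It was at 31.2 and 16.7 FPKM with NanogBiD and at 22.7 and 30.8 with NanogWT at D0. At D1 the NanogBiD libraries were at 14.2 and 9.45 FPKM and those of NanogWT at 30.9 and 37.5, with no overlap. The log2 difference, NanogBiD minus NanogWT, was -1.48 (SE 0.27, adjusted p = 0.00395), and the call is lost without NanogWT D1 replicate 2 (-1.34, adjusted p = 0.0574) or NanogBiD D1 replicate 1 (-1.21, adjusted p = 0.0987). By D7 the combinations overlapped, at 12.1 and 14.96 against 11.5 and 15.3 FPKM. At D12 they stood at 2.84 and 2.90 against 14.9 and 21.6 FPKM, or 12.0% and 68.3% of the D0 means. Against D0, Snai2 with NanogBiD was called lower at D3 and D5, calls that are lost without D0 replicate 2 (-0.80 and -0.79), and at D10 and D12 (-2.61 and -2.63, SE 0.27).

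Snai1 (chromosome 2, 167538195 to 167542814, plus strand), the Snail repressor, had already fallen at D0. MEF were at 57.5 and 46.8 FPKM, the NanogWT libraries of D0 at 10.8 and 10.6, and those of NanogBiD at 4.80 and 4.94. It was lowest in mid-course and higher again later. With NanogBiD the lowest libraries were those of D3 (1.65 and 1.34 FPKM) and was followed by 11.1 and 6.87 FPKM at D7, 13.9 in the D8 library and 4.84 and 5.22 at D12. With NanogWT the lowest mean was at D5 (1.60 and 3.98 FPKM) and was followed by 2.73 and 4.33 at D7, 6.24 and 5.30 at D8, and 8.95 and 9.14 at D10. Snai1 was the single member called higher with NanogBiD on any day, at D7 (log2 1.13, SE 0.30, adjusted p = 0.00729), and that call is lost without NanogBiD D7 replicate 1 (0.82, adjusted p = 0.103) or NanogWT D7 replicate 1 (0.87, adjusted p = 0.105). In mES it was at 2.12 FPKM.

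The Zeb factors were called from D0 on no day with either combination. Zeb1 (chromosome 18, 5591860 to 5775467, plus strand) was at 13.01 and 12.1 FPKM with NanogBiD at D0, at 7.16 and 6.83 at D5 and at 12.2 and 16.6 at D12. With NanogWT it was at 9.82 and 17.3, 14.9 and 12.5, and 14.8 and 17.1 FPKM on the same days, so the combinations stood apart at D5 and overlapped at D0 and D12. The log2 differences at D5 and D7 were -0.88 and -0.78 (SE 0.19, adjusted p = 0.00263 and 0.00372), short of 2-fold and so not called. Zeb2 (chromosome 2, 44983632 to 45117395, minus strand) was at 14.98 and 16.3 against 9.16 and 16.1 FPKM at D0, and at 4.99 and 10.6 against 12.2 and 15.4 at D12. In mES, Zeb1 was at 2.46 FPKM and Zeb2 at 0.0414, so at D12 both genes were still well above the mES library with either combination. Zeb2 overlaps the antisense gene Zeb2os, at up to 3.91 FPKM in these libraries. It also overlaps the microRNA gene Mir5129, which lies on the strand of Zeb2, at up to 18.0 FPKM and at 7.80 on average in MEF. No strand setting is stated, and none would part Mir5129 from Zeb2. The reads of both overlapping genes therefore cannot be told apart from those of Zeb2.

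The cadherins behaved unlike each other. Cdh11 (chromosome 8, 102632095 to 102785642, minus strand) had a mean of 112 FPKM in MEF. At D0 it was lower than in both MEF libraries, at 56.8 and 53.5 FPKM with NanogBiD and 53.2 and 60.8 with NanogWT. At D1 it was at 36.7 and 34.7 against 85.6 and 73.1 FPKM, and the log2 difference was -1.13 (SE 0.16, adjusted p = 0.000327). By D7 it stood at 47.3 and 46.6 against 49.6 and 64.7 FPKM. It was at 17.7 and 19.8 against 71.4 and 68.6 FPKM at D10, and at 11.3 and 16.3 against 69.2 and 82.3 at D12. The log2 difference at D12 was -2.39 (SE 0.16, adjusted p = 5.67e-10). The NanogWT mean of Cdh11 at D12 was 67.8% of its MEF mean. Cdh2 (chromosome 18, 16588877 to 16809246, minus strand) instead was higher at D1, at 37.8 and 41.1 FPKM with NanogBiD and 30.6 and 31.2 with NanogWT. It ended at 11.4 and 19.2 and at 23.7 and 27.6 FPKM, around or above the 12.0 and 16.2 of MEF. The D1 difference from D0 was called with NanogBiD (log2 1.13, SE 0.24, adjusted p = 0.00169), a call that is lost without D0 replicate 1 (0.9999, just under the limit) or with quantile normalization (0.95), and was 0.76 with NanogWT (adjusted p = 0.0286).

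Vim (chromosome 2, 13573927 to 13582826, plus strand) was by far the most abundant of the 10. It stood at 4214 and 4170 FPKM at D0 and 7180 and 7397 at D1 with NanogBiD (log2 0.80, not called), and at 3649.5 and 3609 and then 8743 and 7744 with NanogWT (log2 1.18, SE 0.20, adjusted p = 0.000187). From D1 on every NanogBiD library was below every NanogWT library of its day, by a log2 difference of 0.18 or less in size at D1 and D3. At D5 the libraries were at 3095 and 2670 against 4337 and 3739.7 FPKM, at D7 at 1599.7 and 1501 against 3584 and 3319, and at D12 at 645 and 925 against 2237 and 2275. The NanogWT libraries of D12 lay between the MEF libraries (1895 and 2624 FPKM), and mES held 54.7. The log2 difference at D7 was -1.15 (SE 0.20, adjusted p = 0.000179). Quantile normalization, which gives all libraries one distribution, brought it to -0.71 (adjusted p = 0.0297), under the 2-fold limit, and the NanogBiD change from D0 to D7 from -1.44 to -0.96.

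**Figure D2:**
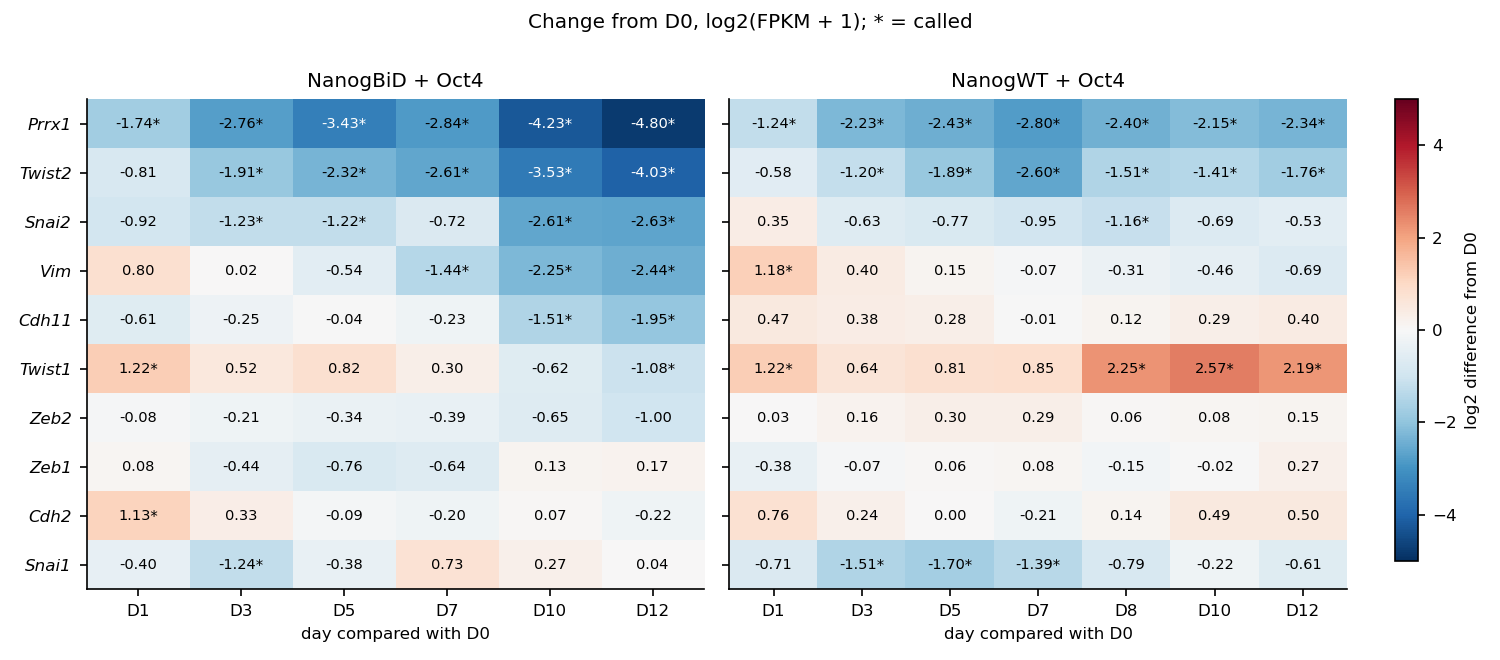
Log2(FPKM + 1) difference of each day from D0 (columns) for the 10 genes (rows) with NanogBiD (left) and NanogWT (right); blue is lower and red higher than D0, and asterisks mark called differences. Prrx1 runs from -1.74 to -4.80 with NanogBiD and Twist1 from 1.22 at D1 to 2.57 at D10 with NanogWT; NanogBiD at D8 has 1 library and no test.

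Counted by day against D0, NanogBiD had 3 of the 10 genes called at D1 (Prrx1 lower, Twist1 and Cdh2 higher), where 8.85% of all genes were called, 3.79% lower and 5.06% higher. From D3 on all its called members were lower: 4 at D3 (15% of all genes called, 6.06% lower), 3 at D5 (19.6% and 6.23%), and 3 at D7 (18.8% and 6.15%). The number was 5 at D10, with 31.4% of all genes called (9.84% lower), then 6 at D12, with 34.7% (10.2% lower). The median log2 change of the 10 at D12 was -1.51, beside 0.34 over all genes. NanogWT had 3 at D1 (Prrx1 lower, Twist1 and Vim higher; 7.64% of all genes called, 3.03% lower and 4.61% higher). Prrx1, Snai1 and Twist2 were lower at D3 (14.7%, 5.11% lower), D5 (16.1%, 5.34% lower) and D7 (17.7%, 5.69% lower), 3 members each day. At D8 it had 4 (Prrx1, Twist2 and Snai2 lower, Twist1 higher; 17.8%, 4.98% lower and 12.8% higher). At D10 and D12 it had Prrx1 and Twist2 lower and Twist1 higher (16% of all genes, 4.19% lower and 11.8% higher, and 16.2%, 3.95% and 12.2%). Over the 6 days tested with both, 7 genes were called lower on at least 1 day with NanogBiD, as were 14% of all genes, and 3 with NanogWT, as were 8.89%. With D8, tested for NanogWT alone, its number was 4 (9.4% of all genes). The Snai2 call at D8 is lost without NanogWT D8 replicate 1 (-0.94) or D0 replicate 2 (-0.95).

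Set against each other on the same day, the combinations did not differ by the call rule in any of the 10 genes at D0, where 0.76% of all genes were called. At an unadjusted p under 0.05, 1 of the 10 differed there (Snai1, log2 -0.99, SE 0.30, adjusted p = 0.0946), against 15.8% of all genes. At D1 2 genes were called, Snai2 and Cdh11, both lower with NanogBiD (1.33% of all genes were called, 0.962% lower). None was called at D3 (3.7%), where 6 had an unadjusted p under 0.05 (22.8% of all genes) and the lowest adjusted p, of Cdh11, was 0.00872 at a log2 difference of -0.68. At D5 Prrx1 was called (log2 -1.02, SE 0.20, adjusted p = 0.00105; 6.48% of all genes, 3.28% lower), with libraries at 5.21 and 5.39 against 12.6 and 10.9 FPKM. That call is lost without NanogWT D5 replicate 1 (-0.92) or NanogBiD D5 replicate 1 (-0.99).

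At D7, the last day of like depth, 3 genes were called (10.4% of all genes, 4.65% lower and 5.79% higher): Vim and Twist1 lower and Snai1 higher with NanogBiD. Twist1 was at 22.5 and 17.0 against 47.1 and 34.6 FPKM (log2 -1.01, SE 0.31, adjusted p = 0.0205), and the call is lost without NanogBiD D7 replicate 2 (-0.82) or NanogWT D7 replicate 1 (-0.79). Prrx1, Twist2, Snai2 and Cdh2 had log2 differences of -0.06, -0.14, 0.02 and -0.01, with SE of 0.20 to 0.33, so their levels could not be told apart at D7. Pluripotent markers (Zfp42, Esrrb, Dppa5a, Tdgf1, Sall4 and Utf1) summed to 82.3 to 89.8 FPKM with NanogBiD and 2.31 to 3.06 with NanogWT that day; their part was not tested. In fits to the 4 libraries of a day alone, limma called 0 of the 10 genes at D1, where it called 0% of all genes, and 0 at D7, where it called 8.59%, with 6 and 4 at an unadjusted p under 0.05 and lowest adjusted p of 0.207 and 0.0405.

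At D10 and D12 the same 6 genes were called, all lower with NanogBiD (Snai2, Twist1, Twist2, Prrx1, Cdh11 and Vim), where 27.8% and 23.4% of all genes were called, 12.3% and 9.97% lower. Twist1 was the farthest apart, with 10.9 and 8.85 against 115 and 161 FPKM at D10 and a log2 difference of -3.66 (SE 0.31, adjusted p = 1.48e-08). Prrx1 was at 2.78 and 2.45 against 13.7 and 15.4 FPKM (-2.10, SE 0.20, adjusted p = 3.99e-08), and Twist2 at 2.27 and 1.37 against 13.7 and 10.7 (-2.24, SE 0.33, adjusted p = 1e-05). For each of the 6, no library of one combination reached any of the other. At D12 the log2 differences of the 6 ran from -1.54 (Vim) to -3.74 (Twist1), the median over all 10 was -1.92, and that over all genes was 0.17. The calls of these days held without any single library. They set libraries of unlike depth against each other, and the pluripotent markers summed to 513 to 1876 FPKM with NanogBiD and 28.2 to 184 with NanogWT on these days; the part of either was not tested. Zeb1, Zeb2 and Cdh2 were not called between the combinations at any of the 7 days compared.

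**Figure D3:**
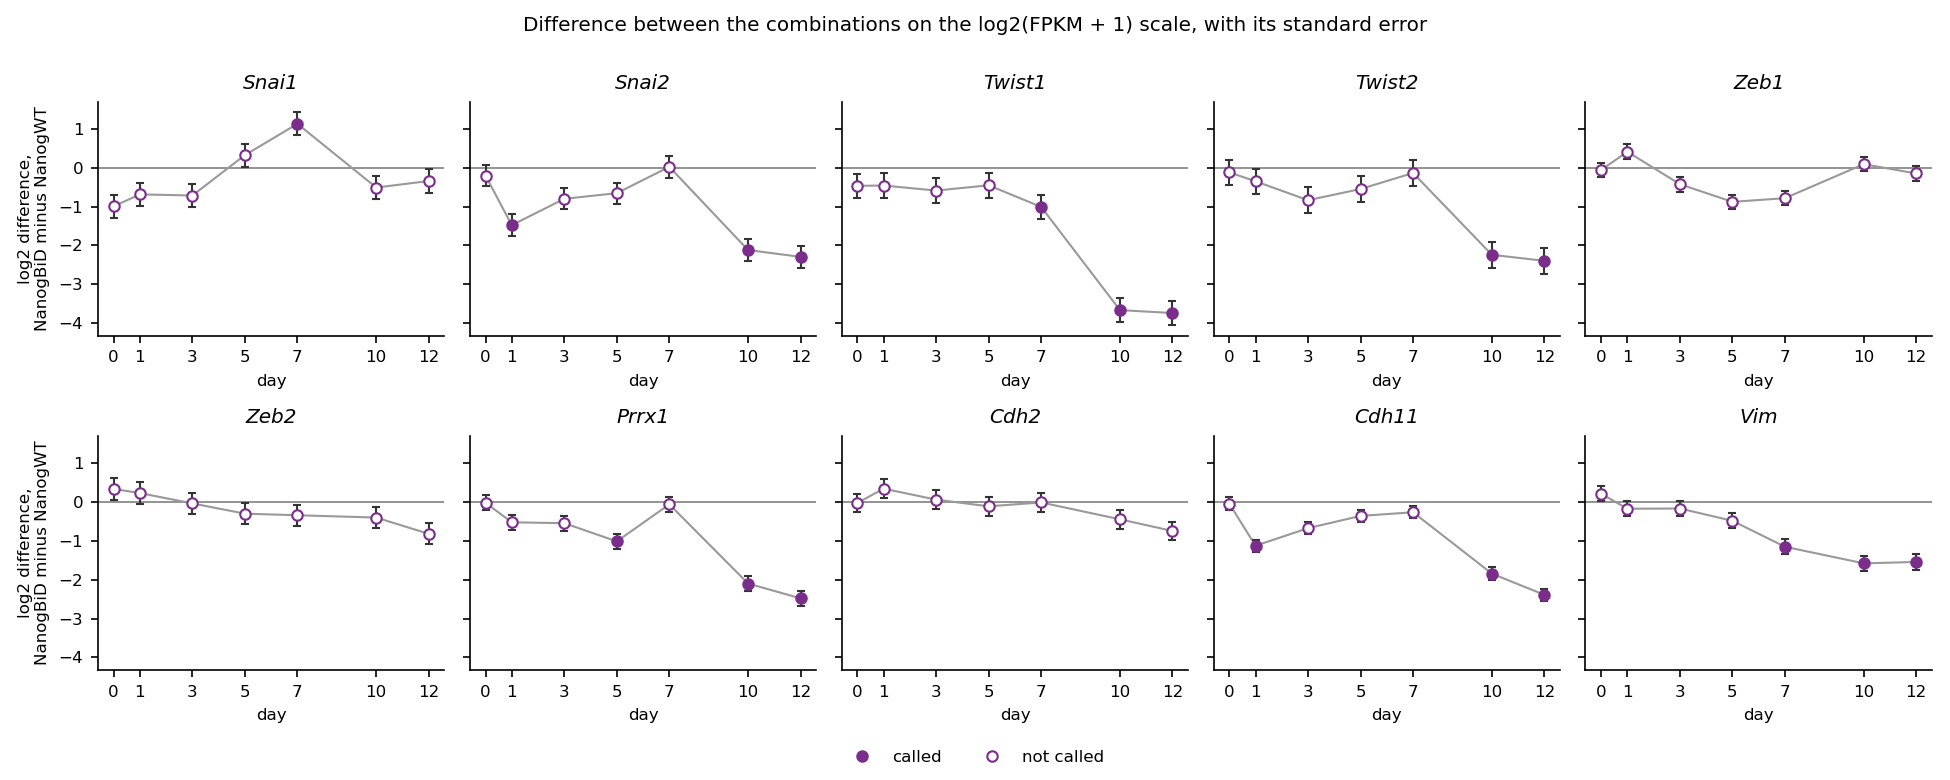
Log2(FPKM + 1) difference between the combinations, NanogBiD minus NanogWT, against the day for the 10 genes; bars are standard errors and filled points are called. Snai2 and Cdh11 part at D1, approach 0 by D7 (0.02 and -0.27) and part again at D10, and Zeb1, Zeb2 and Cdh2 have no filled point.

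The test of whether the change from D0 itself differed between the combinations called Snai1 (2.12, SE 0.42, adjusted p = 0.0016) and Vim (-1.36, SE 0.28, adjusted p = 0.00206) at D7, when 10.1% of all genes were called, 4.88% lower and 5.2% higher. With quantile normalization the value of Vim was -0.66 (adjusted p = 0.204) and not called. At D12 it called 7 of the 10 genes, all lower with NanogBiD, when 23.9% of all genes were called, 10.5% lower. They were Twist1 (-3.27, SE 0.44, adjusted p = 1.27e-05), Prrx1 (-2.46, SE 0.28), Cdh11 (-2.35, SE 0.23), Twist2 (-2.28, SE 0.46), Snai2 (-2.09, SE 0.39), Vim (-1.75, SE 0.28) and Zeb2 (-1.15, SE 0.39, adjusted p = 0.0242). The Zeb2 call is lost without NanogBiD D0 replicate 1 (-1.10), NanogBiD D12 replicate 1 (-0.68), NanogWT D0 replicate 1 (-0.78) or NanogWT D12 replicate 2 (-0.995). Within NanogWT alone, D8 differed from D7 in Twist1 (1.40, SE 0.31, adjusted p = 0.00342) and Twist2 (1.08, SE 0.33, adjusted p = 0.0261), both higher at D8, when 7.05% of all genes were called, 4% higher. The Twist2 call is lost without D7 replicate 1 (0.64) or D8 replicate 2 (0.60), and that of Twist1 without D7 replicate 2 (1.19, adjusted p = 0.0643). This step spans the medium change and the step in depth, which cannot be told apart here.

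D0 was also set against uninfected MEF, to see what had moved by then. With NanogBiD 2 of the 10 genes were called, both lower than MEF, when 11.4% of all genes were called, 5.51% lower: Snai1 (-3.17, SE 0.29, adjusted p = 1.12e-07) and Twist1 (-1.74, SE 0.32, adjusted p = 0.000358). With NanogWT the same 2 were called (6.75% of all genes, 3.03% lower), Snai1 at -2.18 (SE 0.29, adjusted p = 2.33e-05) and Twist1 at -1.28 (SE 0.32, adjusted p = 0.00749). The latter is lost without NanogWT D0 replicate 2 (-0.76) or MEF replicate 1 (-0.98). Cdh11 and Twist2 were not called, but their D0 means were also lower than in MEF. Those of Cdh11 were 55.2 FPKM with NanogBiD and 57.0 with NanogWT, against 112. Those of Twist2 were 31.3 and 34.3 FPKM, against 57.6. Vim was the other way, at 4214 and 4170 FPKM with NanogBiD against 1895 and 2624 in MEF, a log2 difference of 0.91 that stayed under 2-fold. The D0 means of Zeb2, Prrx1 and Cdh2 were also above those of MEF with both combinations. These comparisons share the MEF libraries and so are not independent.

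In the iPSC table all 10 genes were called lower in the 12 iPSC libraries than in the 2 MEF libraries, among 13312 genes tested, of which 40.4% were called, 18.7% lower. The log2 differences ran from -1.56 for Zeb1 (SE 0.26, adjusted p = 0.000102) to -6.39 for Cdh11 (SE 0.69, adjusted p = 1.57e-06). Cdh11 was at 155 and 112 FPKM in MEF and at 0 to 9.20 in the 12 iPSC, and Prrx1 at 91.4 and 94.8 against 0 to 13.8. Zeb1 was at 13.2 and 16.8 FPKM in MEF, at 2.10 to 8.09 in iPSC and at 2.56 in mES, and Cdh2 at 24.0 and 33.9, 1.56 to 11.7 and 2.43. Of the 10, these and Snai1 (3.19 to 9.40 FPKM in iPSC, 1.64 in mES) and Vim (67.2 to 549 in iPSC, 51.9 in mES) were the genes above 1 FPKM in all 12 iPSC. Prrx1 differed between the tables in MEF, at 51.5 and 52.2 FPKM in the gene table, so levels are not set across them.

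A single library stood apart. NanogBiD iPSC sample 9, of line iPSC1, was the highest of the 12 iPSC in all 10 genes, among them Prrx1 at 13.8 FPKM against 0 to 3.89 in the other 11, Twist2 at 6.91 against 0 to 1.33, and Vim at 549 against 67.2 to 300. Its 6 fibroblast markers summed to 1309 FPKM against 1.12 to 411 in the others, and its 6 pluripotent markers to 1647 against 2406 to 4781. Without it all 10 genes were still called lower than in MEF, from -1.62 (Zeb1) to -6.65 (Cdh11). Between NanogBiD and NanogWT iPSC, with the line as covariate, limma called 0 of the 10 genes and 0 of all 13312. At an unadjusted p under 0.05 it had 0 of the 10 and 1.68% of all genes. The log2 differences were 0.17 to 0.67 with SE of 0.19 to 0.56, all 10 toward NanogBiD, but without sample 9 they were -0.26 to 0.31 and 5 of the 10 were toward NanogBiD. With libraries 1# and 1#-2 averaged, 10 genes were called against MEF and 0 between the combinations.

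**Figure D4:**
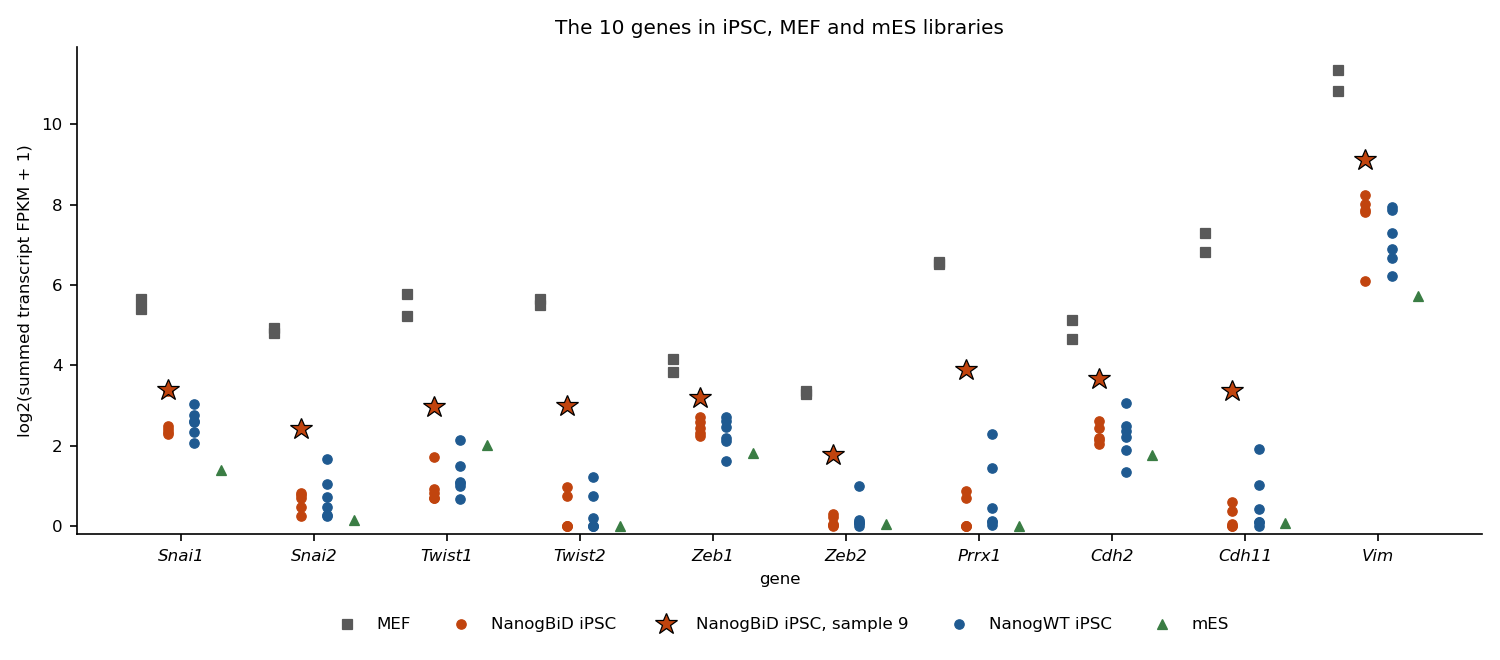
Log2(summed transcript FPKM + 1) of the 10 genes in MEF (squares), NanogBiD iPSC (orange), NanogWT iPSC (blue) and mES (triangles), with a point per library. Each iPSC library lies under both MEF libraries in every gene, and NanogBiD iPSC sample 9 (stars) is the top iPSC point in all 10.

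The transcript table splits 5 of the genes into isoforms. Prrx1 had 4 transcripts of at least 1 FPKM in a MEF library, NM_175686.3 at 44.2% of the gene's summed FPKM, NM_011127.2 at 31.0%, NM_001025570.1 at 17.8% and XM_006496703.3 at 7.04%. All 4 are at 0 in mES. Their highest iPSC values, 7.01, 4.85, 1.498 and 0.483 FPKM, kept the same order. These together are the Prrx1 level of NanogBiD iPSC sample 9 alone (13.8 FPKM). The iPSC medians, at 0.137, 0, 0.0293 and 0 FPKM, did not keep that order. Cdh11 had 3 such transcripts, led by NM_009866.5 (69.0%), and Zeb2 had 2, NM_001289521.1 (60.9%) and NM_015753.4 (38.3%). In MEF Zeb1 was carried by NM_011546.3 (99.1%). Summed over the iPSC, NM_011546.3 made up 89.1% of Zeb1 and XM_006525769.2 10.7%. The median of XM_006525769.2 was 0.0105 FPKM. Its highest value, 4.54 FPKM, was the whole Zeb1 level of NanogWT library 1# of line iPSC1, where NM_011546.3 was at 0. Summed over the iPSC, Zeb2 had NM_015753.4 at 67.3% and NM_001289521.1 at 32.7%, both at low values (medians 0.0696 and 0 FPKM). Their highest values, 1.04 and 1.37 FPKM, were those of NanogBiD iPSC sample 9, which kept the MEF order. The other 6 genes had a single transcript of at least 1 FPKM in a MEF library, and how reads were shared between isoforms is an estimate of the quantifier.

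The loss of mesenchymal markers was set beside the gain of epithelial genes. Cdh1 was at 6.78 and 6.06 FPKM with NanogBiD at D7 against 0.0712 and 0.0660 with NanogWT (log2 2.79, SE 0.31, adjusted p = 1.64e-06), and at 33.3 to 49.8 against 2.46 to 7.15 at D12. Epcam, an epithelial adhesion molecule, was called higher with NanogBiD from D5, at 4.17 to 5.02 against 0.631 to 0.687 FPKM (1.75, SE 0.34, adjusted p = 0.00114). In the D7 cultures with NanogBiD, Cdh1 and Epcam (16.4 and 17.1 FPKM) had thus risen while Cdh2 stood at 15.6 and 14.6 FPKM and Cdh11 at 47.3 and 46.6, each called neither from D0 nor from NanogWT.

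**Figure D5:**
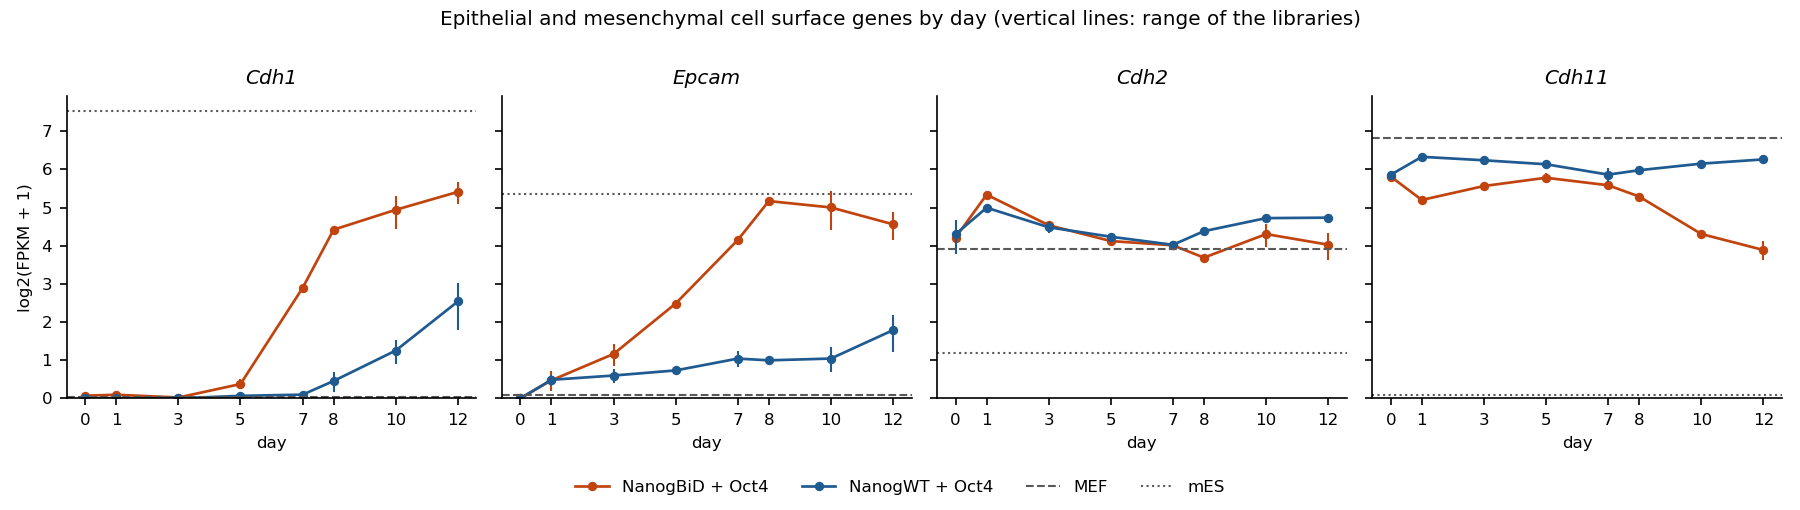
Log2(FPKM + 1) of the epithelial genes Cdh1 and Epcam and the mesenchymal cadherins Cdh2 and Cdh11 against the day; points are means, vertical lines span the libraries, and dashed and dotted lines give MEF and mES. With NanogBiD Cdh1 climbs from D7 (6.42 FPKM) to D12 (41.5 FPKM), over the same days on which Cdh11 goes from 47.0 FPKM to 13.8, and Cdh2 ends near its MEF level.

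Of 20 epithelial genes known as targets of these repressors, 17 were tested. At D7, 9 were called higher and 0 lower with NanogBiD than with NanogWT, with a median log2 difference of 1.16 beside 0.08 over all genes, of which 5.79% were called higher and 4.65% lower; the same shares stand behind each list at D7. The largest were Epcam (3.12), Cdh1 and the tight junction gene Cldn4 (2.51, with 12.7 and 12.4 against 1.81 and 1.00 FPKM). From D0 to D12, 15 were called higher with NanogBiD, where 24.6% of all genes were, and 3 higher and 1 lower with NanogWT, where 12.2% and 3.95% of all genes were. Of 12 mesenchymal surface and matrix genes, 11 were called lower at D12 than at D0 with NanogBiD (median log2 -2.68, beside 0.34 over all genes, of which 10.2% were called lower). With NanogWT 2 of the 12 were lower and 1 higher. At D7 the collagen receptor Ddr2 (log2 -1.80) and the surface protein Thy1 (-1.47) were lower with NanogBiD and the collagen-crosslinking enzyme Lox was higher (1.11, 70.3 and 65.0 against 30.8 and 30.7 FPKM, and 666 on average in MEF).

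Of 21 other transcription factors of mesenchyme or of the transition, 19 were tested, and at D7 2 were called higher and 2 lower with NanogBiD (median log2 0.06, beside 0.08). Meox1, a homeobox factor of the somites, was at 12.7 and 17.5 FPKM against 0.114 and 0 (log2 3.92, SE 0.15, adjusted p = 4.39e-12), above its mean of 1.58 in MEF. Osr1, an odd-skipped factor of connective tissue, was at 4.99 and 5.47 against 33.1 and 33.2 FPKM (-2.46, SE 0.16), and the forkhead factor Foxf2 at 0.332 and 0.520 against 5.15 and 5.07 (-2.10, SE 0.21). Among 9 tested of 11 cadherins, Cdh1 and Cdh13 were higher and Cdh8 and Cdh10 lower with NanogBiD at D7, and Cdh13 (19.0 and 19.1 against 1.81 and 2.67 FPKM) and Cdh8 (1.09 and 0.985 against 9.46 and 11.3) were each above their MEF means in the combination where they were high. Of 9 intermediate filament genes, Krt8 was higher (1.19) and Vim and Des lower, with Des, the muscle filament gene, at 14.7 and 6.14 against 90.2 and 59.3 FPKM (-2.81, SE 0.38).

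The genes most like each member were found by Pearson correlation of the log2(FPKM + 1) means of 18 groups (the 16 time-course groups, MEF and mES). This is a description over groups that, apart from mES, share MEF as their origin. Zeb2 was at 0.0414 FPKM in the single mES library and at 7.77 or more in every other group mean. The part of that library in the correlations was not tested. Twist2 was most like Prrx1 (r = 0.97) and the receptor gene Axl (0.97), and Prrx1 most like Sar1a and Tsc22d2 (both 0.98). Cdh11 was most like the fibrillar collagen gene Col5a2 and the Wnt secretion gene Wls (both 0.96), Vim like Armcx2 and Ube2j1 (both 0.97), and Snai2 like Sh3kbp1 (0.96) and Gpx8 (0.95). Twist1 was most like Pkd2 and Chpf (both 0.96), Zeb1 like Zfhx4 (0.95) and Dlg4 (0.89), Zeb2 like Armcx3 and Micu2 (both 0.98), and Cdh2 like LOC108168966 (0.98) and Zfp521 (0.95). Snai1 had the least close partners, Rflnb and Fam101b (both 0.89), which are the current and an older symbol of 1 gene in RefSeq and so may not be separate rows.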

How the data were processed

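RNA-seq libraries of the time course, MEF, mES and iPSC were grouped by their GEO labels. Per the labels and the study's methods, the authors trimmed reads with Trim Galore 0.6.4, aligned them to mm10 with HISAT2 2.2.1 and quantified them with StringTie 2.2.1. The deposited values are FPKM, in a gene table of 34 libraries and a transcript table of 15, with replicates kept apart. The annotation and strand setting are not given in the sources used here. The labels and the methods name different library kits. The authors' GFOLD calls were not used.

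The values were analysed as log2(FPKM + 1), a pseudocount of 1, which understates changes of low genes. The test, on genes that reached 1 FPKM in 2 or more libraries, was limma 3.58.1 under R 4.3.3 (lmFit, contrasts.fit, eBayes with an intensity trend; two-sided; Benjamini-Hochberg over all genes tested). The 16 combination-by-day groups shared 1 estimate of the spread, MEF were added for the D0 comparison, and the iPSC table was fitted on its own, with the line as covariate between combinations. The script was tested on simulated data. FPKM give no counts, so only relative depth is known, from ratios of values under 0.5 FPKM, and no counting interval is given; that of the iPSC table is unknown.

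The 10 members and all gene lists were chosen with earlier results of these data known. Named genes were all members, the 3 called genes with the largest D7 difference per list, the 2 genes most like each member, isoforms of at least 1 FPKM in MEF, overlapping genes, and Nanog, Pou5f1, Ss18, Cdh1 and Epcam as checks or counterparts. Cdh10 was named after its values were seen, and the CCAAT and TATA motifs were added after the sequences were seen. Alternatives were a pseudocount of 0.1, no filter, TPM, quantile normalization, no fold limit, the compared groups alone, a replicate block, other limits for the timing, and leaving out libraries. Python 3.11.15 with numpy 2.4.6, pandas 2.3.3 and matplotlib 3.10.9 was used for the rest.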

Additional observations from a re-analysis of the deposited data

Results flagged for a closer look

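Among the iPSC, 20 groups of 6 values (10 genes in 2 combinations) were screened for a library far from the rest, by the gap from the extreme library to its neighbour as a share of the group's range, against Dixon's critical value for 6 samples. Chance flags about 1 in 20 such groups, and 9 were flagged. In the NanogBiD iPSC, sample 9 was the far library in 7 genes, with shares of 0.862 (Snai2), 0.730 (Twist1), 0.863 (Twist2), 0.906 (Zeb2), 0.940 (Prrx1), 0.761 (Cdh2) and 0.944 (Cdh11). In the NanogWT iPSC, sample 3 of line iPSC1 was the far library in Zeb2 (0.889, at 0.997 FPKM) and Cdh11 (0.626, at 2.77 FPKM). The genes are not independent of each other, since each library enters all 10, and NanogWT libraries 1# and 1#-2 share a sample number. With these averaged (5 values), sample 3 was the far library in 5 genes, with shares of 0.723 (Snai2), 0.745 (Twist2), 0.914 (Zeb2), 0.771 (Prrx1) and 0.800 (Cdh11).

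The change from D0 differed between the combinations, by the interaction term of the limma fit, in 9 cases. At D7 these were Snai1 (2.12) and Vim (-1.36), and at D12 Snai2 (-2.09), Twist1 (-3.27), Twist2 (-2.28), Zeb2 (-1.15), Prrx1 (-2.46), Cdh11 (-2.35) and Vim (-1.75), as NanogBiD minus NanogWT on the log2 scale. Vim was the gene that differed on both days. The D12 cases set libraries of unlike depth against each other.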

How the results depend on the processing

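No called difference of a single gene changed direction. Of 643 values for single genes under the alternatives other than leaving out 1 library at a time, 602 kept their call or day. Of 372 with a library left out so, 341 did. These values cover only differences called in the fit above, or genes under the 50% limit to the end. The setting without a fold limit keeps every such call, and timing settings under which a gene never passed are not counted. The shares are therefore no measure of how firm the results are. Counts of the 10 genes called also changed by small amounts that are not all listed here. With 1 library left out, for instance, NanogBiD D12 against D0 gave 5 to 7 and the D12 interaction 6 to 8. The larger changes in these counts were as follows. In fits to the compared groups alone they were 0 for NanogBiD against NanogWT at D1 and D7, and against D0 with NanogWT 0 at D1, 1 at D3 and 2 at D8. In the same fits the count was 1 for NanogWT D8 against D7, 1 for the D7 interaction, 1 for NanogBiD D0 against MEF and 0 for NanogWT D0 against MEF; they have few residual degrees of freedom. Where they gave 0, limma's unadjusted p was under 0.05 in 6 and 4 genes between combinations at D1 and D7, in 3 for NanogWT at D1 and in 3 for NanogWT D0 against MEF. Without the fold limit they were 1 at D3 and 2 at D5 between combinations, 6, 6 and 5 at D1, D5 and D7 with NanogBiD, 5 and 5 at D1 and D7 with NanogWT, and 5 and 4 for D0 against MEF with NanogBiD and NanogWT. Without the filter NanogWT D8 against D7 gave 1 (Twist1), and quantile normalization left 1 (Snai1) in the D7 interaction. Leaving out 1 library at a time gave 1 to 2 at D1, 0 to 1 at D5 and 1 to 3 at D7 between combinations, 3 to 5 for NanogWT D7 against D0, 1 to 2 for NanogWT D8 against D7, 2 to 4 for NanogBiD D0 and 1 to 3 for NanogWT D0 against MEF. With a limit of 25% of D0 in place of 50%, 4 genes with NanogBiD and 1 with NanogWT (Prrx1) stayed under it; the order under 50% of the MEF mean is given with the timing above. On the TPM scale Twist2 with NanogWT passed the 50% limit at D10, Twist1 with NanogBiD did not pass it, and the median of all genes moved by -0.19 to 0.21 from that of the FPKM fit, by over 0.1 in 8 of 27 comparisons; quantile normalization moved it by -0.36 to -0.0033, by over 0.1 in 13 of 27. The replicate block gave the same counts in all 25 comparisons that allowed it, for instance 3 at D7 and 6 at D12 between combinations; same-numbered libraries deviated together at -0.065 to 0.39, so the numbers were not taken as pairs. The cause of these changes was not tested. Depth limits every comparison of the combinations at D10 and D12.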
